A study of Mus musculus with 6 samples.

Results

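Type I interferon-stimulated genes were followed as a set of 41 genes, named by symbol and found by Ensembl gene ID among the 56884 genes of the count table, where all 41 matched 1 row each. They were read in 3 spleens of passage-1 (P1) mice, which are recipients in adoptive transfer of a mouse model of mantle cell lymphoma named Eµ-SOX11CCND1, and in 3 samples of B cells selected from wild-type (WT) spleens, whose column headers name BL6. The Eµ element is an immunoglobulin heavy chain enhancer, active in B lineage cells, and the model's name gives SOX11 and cyclin D1 as the genes it carries. The P1 samples are labelled as spleen with no selection, so the groups differ at once in genotype, tumour and cell selection, which cannot be told apart here. Age, sex and recipient strain are not given in the sources used here, nor whether the recipients shared 1 donor, and the p-values therefore reflect only how far these particular libraries vary.

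Type I interferons are secreted alarm signals. They bind the receptor pair Ifnar1 and Ifnar2, whose kinases Jak1 and Tyk2 activate Stat2 and other signal transducers, and a complex that holds Stat2 and Irf9 binds interferon-response elements in the promoters of antiviral genes. The genes they switch on encode sensors of viral nucleic acid, the ubiquitin-like protein Isg15 with its enzymes, proteins that bind or cut viral RNA, and feedback regulators. B cells, red cell precursors, myeloid cells and T cells can all express such genes, and in a bulk sample fewer cells of a type and less RNA per cell cannot be told apart.

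The promoters that the results turn on are shown first, since the set is defined by its answer to a common signal. Each window runs from 250 bases before to 50 bases after the annotated start, on the gene's strand, from RefSeq on GRCm38.p6, a build other than that of the count table. A script searched both strands for GAAA-NN-GAAA, that is GAAA, any 2 bases and GAAA, the core of the interferon-response element. Of the 27025 genes in the promoter table, 3.99% held it in a window. Of the 31 members that matched the table, 13 held it (41.9%), among them 7 of the 12 members called higher below and 6 of the 19 others. A match describes the letters only. The first 5 windows are those of the members with the largest fold changes among those holding the motif, at chr12:26456403-26456702 (minus strand), chr4:156200769-156201068 (minus), chr19:34640639-34640938 (plus), chr5:120777610-120777909 (minus) and chr7:141010695-141010994 (minus). Capitals mark the motif on either strand, and overlapping matches run together.
Rsad2: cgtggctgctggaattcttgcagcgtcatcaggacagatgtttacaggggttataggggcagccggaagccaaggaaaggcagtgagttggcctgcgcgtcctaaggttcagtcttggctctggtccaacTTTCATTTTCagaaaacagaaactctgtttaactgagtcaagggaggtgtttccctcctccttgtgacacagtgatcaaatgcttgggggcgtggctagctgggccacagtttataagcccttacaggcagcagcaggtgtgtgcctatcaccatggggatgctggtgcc
Isg15: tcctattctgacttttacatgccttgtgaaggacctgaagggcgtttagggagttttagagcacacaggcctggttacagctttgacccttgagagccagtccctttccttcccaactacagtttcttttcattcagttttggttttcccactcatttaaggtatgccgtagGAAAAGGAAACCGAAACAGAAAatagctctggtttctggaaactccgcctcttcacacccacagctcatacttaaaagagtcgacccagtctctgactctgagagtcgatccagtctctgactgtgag
Ifit1: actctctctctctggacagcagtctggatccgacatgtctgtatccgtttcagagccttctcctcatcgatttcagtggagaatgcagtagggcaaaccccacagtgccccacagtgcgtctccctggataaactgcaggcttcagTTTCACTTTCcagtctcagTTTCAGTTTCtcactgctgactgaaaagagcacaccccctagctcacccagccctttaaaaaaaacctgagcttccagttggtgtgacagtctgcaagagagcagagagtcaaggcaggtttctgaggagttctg
Oas3: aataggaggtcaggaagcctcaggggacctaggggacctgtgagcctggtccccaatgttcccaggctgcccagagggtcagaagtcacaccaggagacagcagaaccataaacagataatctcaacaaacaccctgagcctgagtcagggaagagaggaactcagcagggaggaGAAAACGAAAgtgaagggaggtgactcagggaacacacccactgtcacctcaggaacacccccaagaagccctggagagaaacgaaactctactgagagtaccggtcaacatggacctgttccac
Ifitm3: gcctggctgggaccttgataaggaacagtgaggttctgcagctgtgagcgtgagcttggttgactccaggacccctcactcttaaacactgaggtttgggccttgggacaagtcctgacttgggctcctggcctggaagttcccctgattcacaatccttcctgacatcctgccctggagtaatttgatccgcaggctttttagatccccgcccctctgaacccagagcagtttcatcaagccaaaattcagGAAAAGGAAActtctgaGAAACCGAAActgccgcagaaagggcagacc
Isg15 held 3 overlapping matches, Ifit1 and Ifitm3 held 2 each, and Rsad2 and Oas3 held 1 each. The Isg15 matches began 78, 72 and 66 bases before the start, whereas both Ifitm3 matches began after it, at bases 3 and 20. Ube2l6 had the second largest fold change of all members with all libraries, and its window, chr2:84798578-84798877 (plus strand), held no match to these letters.
Ube2l6: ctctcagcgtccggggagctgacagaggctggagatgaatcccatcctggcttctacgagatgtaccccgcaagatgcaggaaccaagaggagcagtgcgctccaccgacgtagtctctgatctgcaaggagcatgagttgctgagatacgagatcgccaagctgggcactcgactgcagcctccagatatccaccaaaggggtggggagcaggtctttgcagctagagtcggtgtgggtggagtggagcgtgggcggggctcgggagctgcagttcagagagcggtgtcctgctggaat
Ifit3 and Ifit3b are shown because they are recent copies with closely alike promoters and transcripts, while neither was called. Their windows, chr19:34583279-34583578 and chr19:34607707-34608006 (both plus strand), shared an identical run of 169 bases, which held both motif matches of each.
Ifit3: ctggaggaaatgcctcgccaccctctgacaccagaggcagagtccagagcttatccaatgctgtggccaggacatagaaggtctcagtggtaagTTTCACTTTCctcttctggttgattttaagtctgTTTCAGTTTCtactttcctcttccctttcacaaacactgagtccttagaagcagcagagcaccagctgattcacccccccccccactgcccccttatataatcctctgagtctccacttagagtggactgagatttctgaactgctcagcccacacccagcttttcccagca
Ifit3b: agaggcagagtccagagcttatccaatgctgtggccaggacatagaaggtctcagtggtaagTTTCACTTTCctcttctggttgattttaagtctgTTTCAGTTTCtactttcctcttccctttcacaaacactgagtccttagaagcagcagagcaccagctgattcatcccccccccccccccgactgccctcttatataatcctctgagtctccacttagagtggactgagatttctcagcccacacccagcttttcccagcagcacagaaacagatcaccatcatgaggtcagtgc

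**Figure D1:**
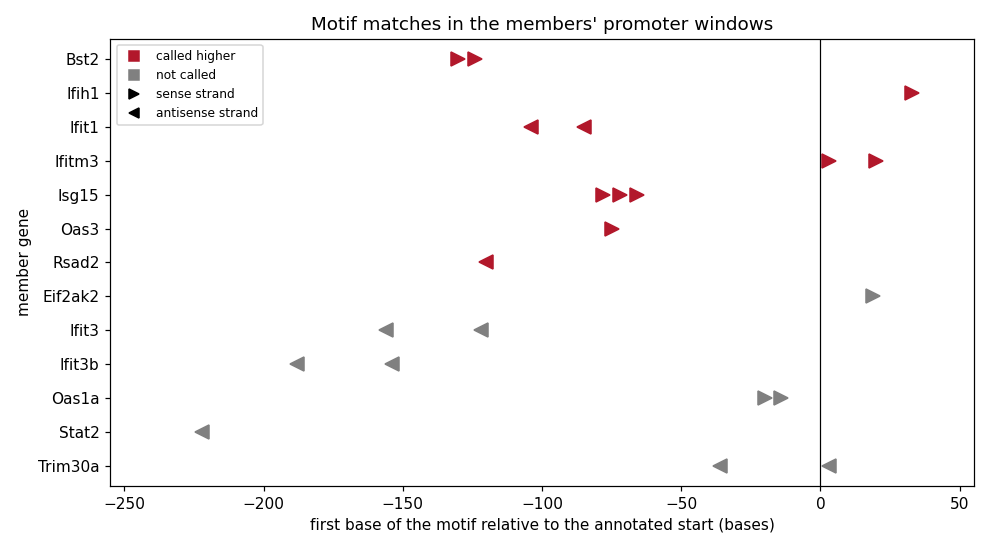
Position of each match to the interferon-response core motif in the members' promoter windows (x axis, first base of the match relative to the annotated start, in bases; y axis, member gene). Arrowheads give the strand, red marks members called higher in P1 spleen and grey the others. The 7 called genes with a match are in the upper rows, and most matches lie before the start.

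Library totals ran from 7510327 to 10363396 counts in P1 spleen and from 12196413 to 14266132 in WT B cells. Levels are given as normalised CPM, each gene's counts as a share of its library's effective total, scaled up to a common total after TMM, which evens out differences in RNA composition between libraries. Mitochondrial genes took 3.40%, 17.4% and 0.085% of counts in P1 3, P1 4 and P1 5, against 0.569% to 1.14% in WT libraries. All 12 pan-B cell markers tested were lower in P1 spleen, with summed levels of 950.4 to 2473 CPM in P1 spleen and 8552 to 9362 CPM in WT B cells. All 8 red cell precursor markers were higher (6247 to 194000 summed CPM in P1 spleen, 94.9 to 114.8 in WT B cells), as were all 10 neutrophil markers (968 to 7373 and 2.44 to 8.09) and all 8 T cell markers (203.9 to 478 and 8.99 to 15.7). Of 10 monocyte and macrophage markers 3 were higher and 0 lower, and of 4 tested NK cell markers 2 were higher. Ncr1 and Klrb1c, which define NK cells, were not called. They had 51 and 59 counts in P1 3 (4.39 and 5.07 CPM), 0 in P1 4, and 2 and 0 in P1 5. In WT libraries Ncr1 had 1.27 to 2.95 CPM and Klrb1c 1.33 to 3.02 CPM. None of 5 conventional dendritic cell markers was called (34.7 to 114.2 summed CPM in P1 spleen, 17.2 to 46.3 in WT B cells), and of 5 tested stroma and endothelium markers 4 were higher and 1 lower. Of 6 tested markers of plasmacytoid dendritic cells, the cells that make most type I interferon, 1 was higher and 1 lower, and Siglech, the defining gene, had 10.7, 0.231 and 1.86 CPM in P1 3, P1 4 and P1 5 against 1.27, 2.57 and 4.69 CPM in WT A, B and C.

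Part of the interferon-stimulated set was higher in P1 spleen, by 0.83 to 8.37 on the log2 scale, and the rest of the tested members, between -1.20 and 1.87, did not pass the test. Of the 41 members 40 passed the filter on low counts, and 16 of these 40 were higher and 0 lower in P1 spleen (edgeR quasi-likelihood test, Benjamini-Hochberg adjusted p under 0.05, n = 3 per group). Of all 15462 tested genes 16.9% were called higher, 11% lower and 27.9% in either direction. At an unadjusted p under 0.05, 18 members were higher and 1 lower, and the share of all tested genes at that threshold is not given here. DESeq2 called 17 members higher and 0 lower, beside 3106 higher and 2207 lower of all 15462 tested genes. The median log2 fold change of the tested members was 0.89, against 0.02 for all tested genes. All 3 P1 libraries lay above all 3 WT libraries in 16 of 41 members (22.9% of all tested genes) and below them in 2 (24.9% of all tested genes). The number called higher was 10 without WT A, 10 without WT B, 10 without WT C, 12 without P1 3, 12 without P1 4 and 20 without P1 5, and 10 members were called in every such fit. Over all genes the same fits, in this order, called 1715, 1644, 1991, 2908, 2818 and 3206 higher, against 2618 with all libraries. When the levels of 12 pan-B cell genes were made equal across libraries instead, the median of all tested genes became 2.98 and the test called 40 of 40 members higher, as it did 90.9% of all genes. Relative to that median, 31 members lay above and 9 below. Scaling by library totals alone ended the calls of Zbp1, Usp18, Herc6, Mx1 and Bst2, leaving 11, and omitting the filter on low counts ended those of Ube2l6 and Bst2, leaving 14. Over all genes, library totals called 1928 of 15462 higher and omitting the filter 3234 of 31473, against 2618 of 15462 in the main fit.

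**Figure D2:**
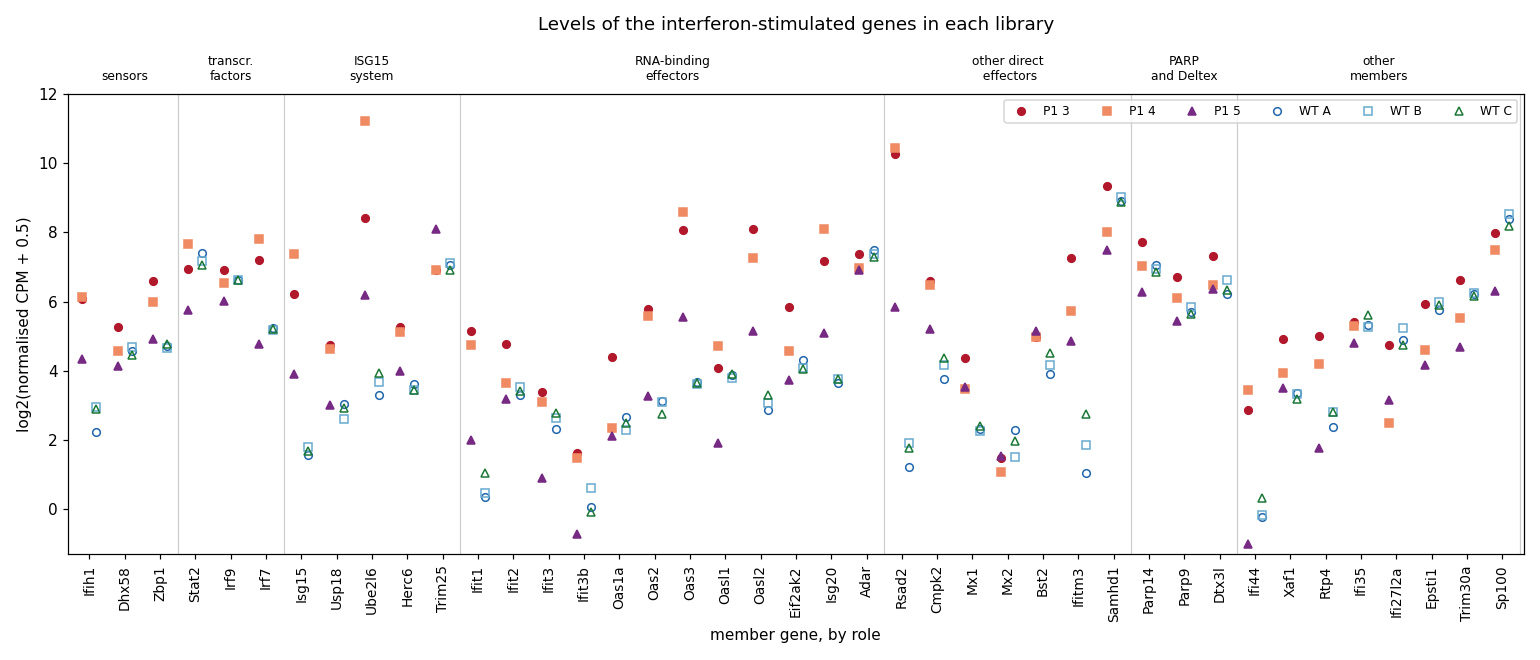
Normalised CPM of all 41 members on a log2 scale, with 0.5 added (y axis), grouped by role along the x axis. Filled symbols are the 3 P1 spleens, left, and open symbols the 3 WT B cell samples, right. WT symbols of a gene mostly lie close together, and P1 5 is the lowest of the filled symbols in 36 of the 41 genes.

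Of 7 direct antiviral effectors outside the RNA-binding group, 5 rose and 0 fell, with Rsad2 at the top of all members. Rsad2 encodes viperin, a radical SAM enzyme that makes a chain-terminating nucleotide, and lies on chromosome 12 at 26492745 to 26506451 (GRCm39, as in the count table). It had 1225, 1392 and 56.7 CPM in P1 3, P1 4 and P1 5, against 1.82, 3.27 and 2.95 CPM in WT A, B and C. The groups did not overlap, but P1 5 held less than the other 2 recipients by a wide margin, and the highest P1 level was 24.5 times the lowest. Rsad2 rose by 8.37 ± 1.21 on the log2 scale (standard error, edgeR adjusted p = 0.00198), the largest change of any member. Ifitm3, a membrane protein that blocks viral fusion (chromosome 7, 140589499 to 140590683), had 153, 52.1 and 28.3 CPM in P1 3, P1 4 and P1 5 and 1.58, 3.15 and 6.27 CPM in WT A, B and C. It rose by 4.42 ± 0.76 (edgeR adjusted p = 0.00373), and in both groups the library with most monocyte and macrophage marker counts, P1 3 and WT C, was also the highest for Ifitm3. P1 3 and WT C were also highest for the summed neutrophil, T cell, NK cell and conventional dendritic cell markers. P1 3 was the highest recipient in 28 of the 41 members. Myeloid cells commonly express Ifitm3, and the part of any cell type in its change was not tested.

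Cmpk2, a mitochondrial nucleotide kinase gene that neighbours Rsad2 with 12751 bases between them, had 95.3, 89.3 and 36.8 CPM in P1 3, P1 4 and P1 5, against 13.03, 17.3 and 20.1 CPM in WT A, B and C. All P1 libraries lay above all WT libraries, and the gene rose by 2.13 ± 0.39 (edgeR adjusted p = 0.00517). Mx1, a dynamin-like GTPase that traps viral nucleocapsids and is known to be non-functional in BL6 mice, had 20.4, 10.6 and 11.1 CPM in P1 3, P1 4 and P1 5 and 4.54, 4.30 and 4.76 CPM in WT A, B and C. It rose by 1.64 ± 0.38 (edgeR adjusted p = 0.0132), which no longer passed when WT A, WT B or WT C was dropped (adjusted p = 0.0621 to 0.0750). Bst2, or tetherin, which holds budding virus at the cell surface, rose by 0.83 ± 0.27 (edgeR adjusted p = 0.0490), and missed the threshold when P1 3, P1 5 or any WT library was dropped (adjusted p = 0.0527 to 0.230). Mx2 and Samhd1, a dNTP hydrolase, did not pass, at -0.66 and -0.44 on the log2 scale.

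Of the 5 genes of the Isg15 system 4 rose. Isg15 itself, the ubiquitin-like protein (chromosome 4, 156283912 to 156285253), had 74.6, 167 and 14.6 CPM in P1 3, P1 4 and P1 5, against 2.48, 3.02 and 2.72 CPM in WT A, B and C. The lowest P1 library was still above every WT library, and the gene rose by 4.95 ± 0.81 (edgeR adjusted p = 0.00307). Ube2l6, the conjugating enzyme that loads Isg15 onto targets (chromosome 2, 84629172 to 84640679), had 341, 2359 and 72.4 CPM in P1 3, P1 4 and P1 5 and 9.27, 12.4 and 14.8 CPM in WT A, B and C. Its P1 levels spanned 32.6-fold, with P1 4 far above the others. It rose by 6.25 ± 1.23 (edgeR adjusted p = 0.00666), which did not pass when genes of low count were kept in the fit (6.04, adjusted p = 0.0841). Without P1 4 it was at 4.12 (edgeR adjusted p = 0.00588). Herc6, the main Isg15 ligase of the mouse, had 37.8, 34.5 and 15.4 CPM in P1 3, P1 4 and P1 5, against 11.8, 10.4 and 10.4 CPM in WT A, B and C. The groups did not overlap, and Herc6 rose by 1.42 ± 0.37 (edgeR adjusted p = 0.0224). Usp18, which removes Isg15 and dampens the interferon receptor, rose by 1.51 ± 0.48 (edgeR adjusted p = 0.0468), although P1 5, at 7.54 CPM, lay below WT A, at 7.82 CPM. Herc6 missed the threshold when P1 4 or any WT library was dropped (adjusted p = 0.0529 to 0.101). Usp18 did so when P1 3, P1 4 or any WT library was dropped (adjusted p = 0.109 to 0.171). Trim25, a ubiquitin ligase that acts with RIG-I, did not pass (0.38, edgeR adjusted p = 0.466). It was the only member for which P1 5 was above all WT libraries while P1 3 and P1 4 were not, with 120.05, 120.33 and 272 CPM in P1 3, P1 4 and P1 5 and 120.49 to 139 CPM in WT libraries.

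Of the 12 RNA-binding effectors, 5 rose and 0 fell. Oasl2, an oligoadenylate synthetase-like gene on chromosome 5 (115034997 to 115050295), had 271, 152 and 35.0 CPM in P1 3, P1 4 and P1 5, against 6.85, 7.90 and 9.37 CPM in WT A, B and C. Oas3, which on binding viral RNA makes the activator of RNase L (chromosome 5, 120891163 to 120915726), had 268, 384 and 46.5 CPM in P1 3, P1 4 and P1 5, against 12.4, 11.8 and 12.02 CPM in WT A, B and C. Both were higher in every P1 library than in any WT library, by 4.25 ± 0.68 and 4.27 ± 0.70 on the log2 scale (edgeR adjusted p = 0.00288 and 0.00309). Isg20, an RNA exonuclease (chromosome 7, 78563172 to 78570144), had 142, 271 and 33.9 CPM in P1 3, P1 4 and P1 5, against 11.9, 13.2 and 13.2 CPM in WT A, B and C. It rose by 3.54 ± 0.66 (edgeR adjusted p = 0.00533), with no overlap between groups. Ifit1, which binds RNA caps that lack host methylation (chromosome 19, 34618271 to 34627409), had 35.1, 26.6 and 3.48 CPM in P1 3, P1 4 and P1 5, against 0.788, 0.899 and 1.59 CPM in WT A, B and C. P1 5 was again much the lowest recipient, yet above all WT libraries, and Ifit1 rose by 4.31 ± 0.82 (edgeR adjusted p = 0.00577). Oas2 rose by 2.30 ± 0.59 (edgeR adjusted p = 0.0210), and missed the threshold when P1 3, P1 4 or any WT library was dropped (adjusted p = 0.0551 to 0.0786).

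The other 7 RNA-binding effectors were between -0.28 and 1.27 on the log2 scale and did not pass. Adar, the RNA deaminase that marks self RNA, was the most abundant of them, with 166, 125 and 119 CPM in P1 3, P1 4 and P1 5 and 178, 166 and 155 CPM in WT A, B and C, ranges that overlap (-0.28, edgeR adjusted p = 0.438). It shares 16.8% of its exon bases with Chrnb2 on the opposite strand, and the strand used in counting is not stated. Eif2ak2, the kinase PKR that halts translation, was at 0.84 and Ifit2 at 0.63. Ifit3, Ifit3b and Oas1a share reads with close copies. Of the 50-base stretches of the Ifit3 transcripts 51.2% also occur in Ifit3b, and 57.6% of those of Oas1a occur in Oas1g, so their counts are uncertain, as those of all other members with shared sequence are to a smaller degree (12.5% of stretches or less).

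**Figure D3:**
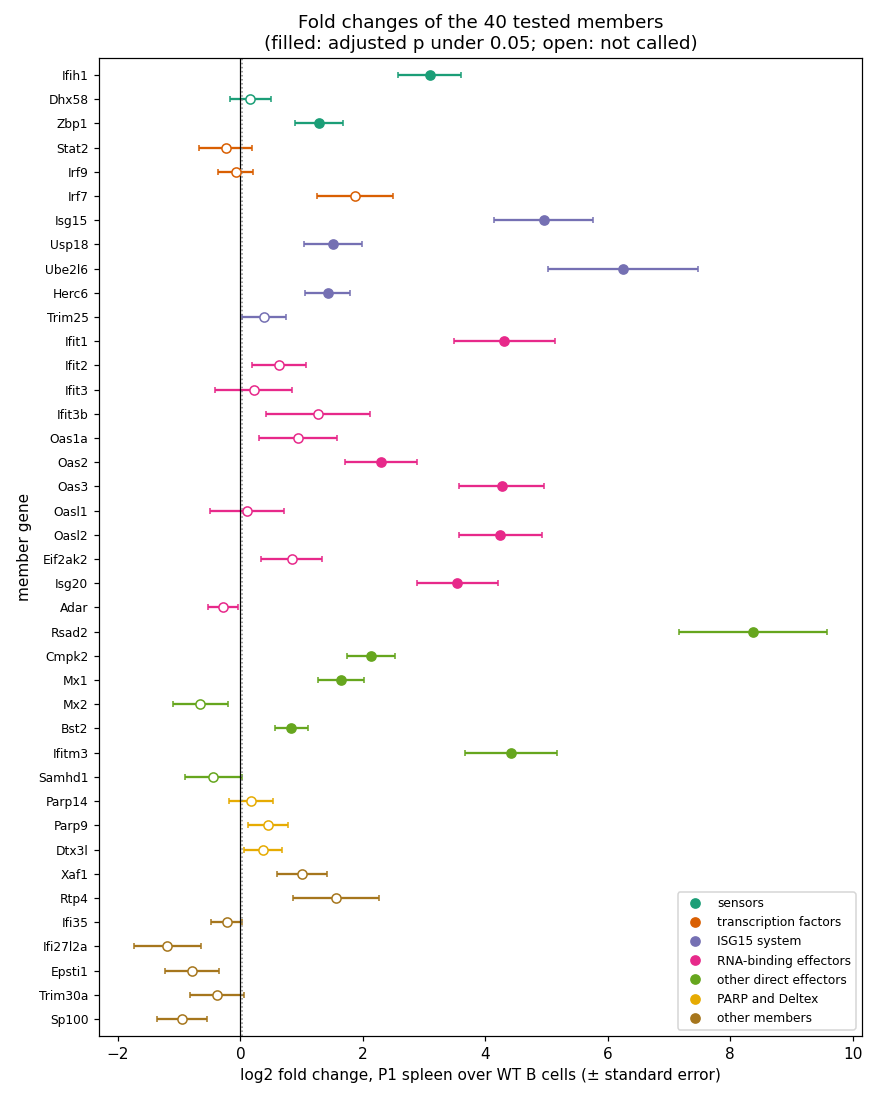
Log2 fold change of the 40 tested members, P1 spleen over WT B cells (x axis), with the standard error as bars and 1 row per gene, coloured by role. The 16 filled points are called higher, with Rsad2 at 8.37 and Ube2l6 at 6.25 as the largest, and no open point is called in either direction. The dotted line is the median of all tested genes, 0.02.

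Among the sensors, Ifih1 (MDA5, which detects long viral RNA; chromosome 2, 62426142 to 62476599) had 66.8, 70.1 and 19.6 CPM in P1 3, P1 4 and P1 5, against 4.18, 7.19 and 6.95 CPM in WT A, B and C. It was higher in all 3 recipients and rose by 3.09 ± 0.51 (edgeR adjusted p = 0.00329). Zbp1, a sensor of Z-form nucleic acid that can trigger cell death, had 96.0, 63.6 and 29.7 CPM in P1 3, P1 4 and P1 5, against 25.9, 24.9 and 26.9 CPM in WT A, B and C. P1 5 was only just above the WT libraries, and the rise of 1.28 ± 0.40 (edgeR adjusted p = 0.0432) was lost in all fits without 1 library except that without P1 5 (adjusted p = 0.0795 to 0.150). Dhx58, or LGP2, which assists MDA5, was at 0.16 (edgeR adjusted p = 0.751).

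The factors that drive the set did not pass. Stat2, a signal transducer that pairs with Irf9, had 123, 201 and 53.9 CPM in P1 3, P1 4 and P1 5, against 169, 143 and 133 CPM in WT A, B and C, so that the recipients lay on both sides of the WT range (-0.24 ± 0.43, edgeR adjusted p = 0.717). Irf9, the DNA-binding partner, was at -0.08 ± 0.28 (edgeR adjusted p = 0.860). Irf7, which amplifies interferon production, was singled out after its values were seen. It had 148, 226 and 26.9 CPM in P1 3, P1 4 and P1 5 and 36.9, 35.9 and 36.6 CPM in WT A, B and C. P1 5 was below all WT libraries and the other recipients were above them, at 1.87 ± 0.63 over the group (edgeR adjusted p = 0.0567). Irf7 passed without P1 5 (2.34, edgeR adjusted p = 0.00102), with DESeq2 (adjusted p = 0.0118) and, like every tested member, with pan-B cell genes made equal. It did not pass without P1 3, P1 4 or any WT library (edgeR adjusted p = 0.101 to 0.168). Nor did it pass with library totals (edgeR adjusted p = 0.0726) or with genes of low count kept (edgeR adjusted p = 0.157).

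Parp14, Parp9 and Dtx3l, which encode ADP-ribosyltransferases and the ubiquitin ligase partner of Parp9, did not pass (0.18 to 0.45). Parp14 had 212, 129 and 76.6 CPM in P1 3, P1 4 and P1 5, against 133, 122 and 115 CPM in WT A, B and C. Parp9 and Dtx3l overlap by 458 exon bases on opposite strands and the strand used in counting is not stated, so reads from that stretch cannot be told apart. Of the 8 other members, 7 were tested and none passed, from -1.20 for Ifi27l2a to 1.56 for Rtp4. Sp100, a nuclear body protein and the most abundant of them, had 254, 178 and 79.3 CPM in P1 3, P1 4 and P1 5 and 331, 370 and 291 CPM in WT A, B and C, all P1 values below all WT values (-0.96 ± 0.41, edgeR adjusted p = 0.122). Ifi44, the member not tested, had 80, 45 and 0 counts in P1 3, P1 4 and P1 5 against 6, 6 and 10 in the WT libraries. A count of 0 in P1 5 allows a level of up to 0.348 CPM for counting error alone.

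Without P1 3, 5 of 41 tested members were called lower (Samhd1, Ifi27l2a, Epsti1, Trim30a and Sp100, from -2.16 to -1.07), against 0 with all libraries. That fit called 2313 of all 16255 tested genes lower, against 1702 of 15462 with all libraries. On a scale per kilobase of exon, the highest mean levels in P1 spleen were 463 normalised CPM per kb for Ube2l6, 206 for Rsad2, 122 for Isg15 and 115 for Ifitm3. The members with the highest mean levels per kilobase in WT B cells were Ifi27l2a, with 28.6 in P1 spleen and 66.6 in WT B cells, Samhd1, with 39.4 and 53.5, and Sp100, with 22.6 and 43.8, and none of these differences passed the test.

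Some members that lie close together differed in their ratio between the groups and some did not. In 6 places 2 to 4 members lay within 200 kb, on chromosomes 5, 12, 16 and 19. Only in the Rsad2 and Cmpk2 pair was every member called. The ratio of 2 members within a library does not depend on how libraries are scaled, and all 15 pairs within these places were compared after their values were seen, with no test. The member with the larger fold change was put on top and 0.5 counts were added, which fixes the sign of most differences. The log2 ratio of Oasl2 to Oasl1 counts was 4.05, 2.55 and 3.41 in P1 3, P1 4 and P1 5, against -1.04, -0.75 and -0.64 in WT A, B and C. Rsad2 over Cmpk2 was 3.68, 3.96 and 0.63 in P1 3, P1 4 and P1 5 and -2.82, -2.39 and -2.75 in WT A, B and C. Both ratios were higher in every recipient than in any WT library. The mean difference, P1 minus WT, was 5.41 for Rsad2 over Cmpk2, 4.14 for Oasl2 over Oasl1, 3.33 for Ifit1 over Ifit2, 2.18 for Mx1 over Mx2 and 1.85 for Oas3 over Oas2. Many of the 15 pairs share a gene with another pair, and pairs of other genes were not compared, so no background share stands beside their count. In 10 of the 15 pairs the groups did not overlap. In the other 5 they did, among them Parp9 over Dtx3l (0.04), Dtx3l over Parp14 (0.26) and Ifit3b over Ifit3 (0.81).

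The 3 recipients differed more in these genes than in most. The median coefficient of variation of the 40 tested members was 63.5% over P1 spleens and 11.3% over WT samples, beside 41% and 14.9% for all tested genes. The median fold of highest over lowest library, with 0.5 CPM added, was 3.54 in P1 spleen and 1.24 in WT B cells for the members, and 2.07 and 1.29 for all tested genes. P1 5 was the lowest recipient in 36 of 41 members (87.8%), against 34.2% of all tested genes. P1 3 lay above all WT libraries in 33 of 41 members, P1 4 in 27 and P1 5 in 17, where the shares of all tested genes were 40.1%, 41% and 41.5%. P1 5 lay below all WT libraries in 21 members (51.2%, against 43.8% of all tested genes). Relative to the WT mean, the median member was at 1.52, 0.70 and -0.27 on the log2 scale in P1 3, P1 4 and P1 5, with 0.5 CPM added to each level, while the median of all tested genes was between -0.10 and -0.04 in each. The 16 called members were at 3.39, 3.54 and 1.35 by the same measure. The call itself selects for such values, so no conclusion about P1 5 is drawn from them. When libraries were scaled by their totals alone, P1 5 was lowest in 21 members (51.2%, against 18.8% of all tested genes) and P1 4 in 20 (48.8%, against 71.2%).

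**Figure D4:**
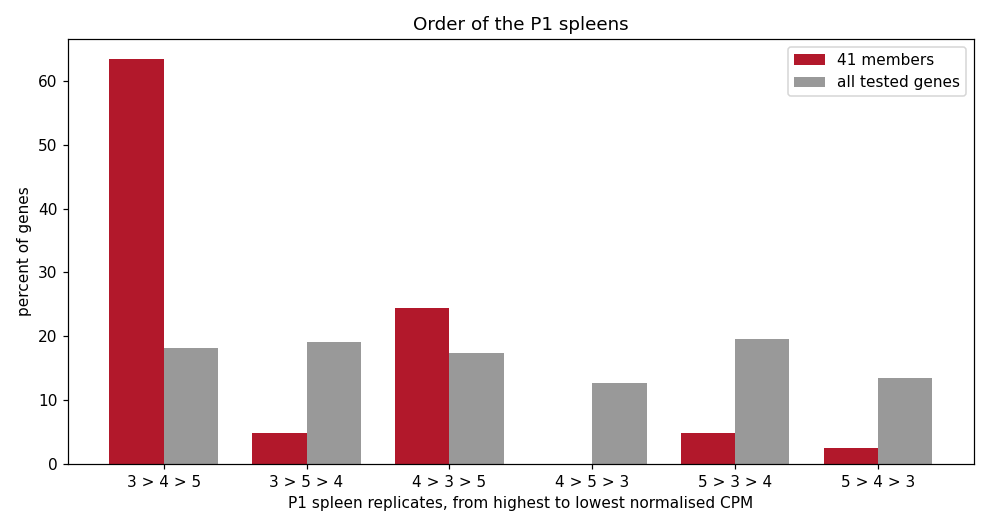
Share of genes (y axis, percent) with each order of the 3 P1 spleens from highest to lowest normalised CPM (x axis, replicate numbers). Red bars are the 41 members and grey bars all 15462 tested genes. The orders 3 > 4 > 5 and 4 > 3 > 5 hold 26 and 10 of the 41 members.

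With TMM scaling most members followed a pair of orders among the recipients. In 26 the order was P1 3, P1 4, P1 5 from highest to lowest (63.4%, against 18.2% of all tested genes), among them 8 called members such as Oasl2, Ifit1, Ifitm3 and Cmpk2. In 10 it was P1 4, P1 3, P1 5 (24.4%, against 17.3%), among them Rsad2, Ube2l6, Isg15, Oas3, Isg20 and Ifih1. These orders depend on the scaling of P1 4, whose TMM factor was 0.578. With library totals the first order held 19 members (14.6% of all tested genes), the second 2 (5.47%) and P1 3, P1 5, P1 4 held 17 (37%). With pan-B-centred scaling the first held 13 (18.5%) and the second 27 (50.7%). By library totals Ube2l6 and Isg15 were still highest in P1 4, while Rsad2, with 1384, 804.4 and 61.6 CPM in P1 3, P1 4 and P1 5, and Oas3, Isg20 and Ifih1 were highest in P1 3. With TMM, of the red cell precursor markers 5 of 8 had this second order and 3 of 8 the first, with 32410, 194000 and 6247 summed CPM in P1 3, P1 4 and P1 5, and their sum was highest in P1 4 by library totals as well. Stroma and endothelium markers had the second order in 5 of 6, although by library totals their sum was highest in P1 3. Neutrophil markers had neither in 9 of 10, where P1 5 exceeded P1 4, and pan-B markers were highest in P1 5 in 10 of 12, with 1315, 950.4 and 2473 summed CPM. The first order was also that of 5 of 10 monocyte and macrophage, 4 of 8 T cell and 3 of 7 plasmacytoid dendritic cell markers. Counting ties at 0 counts, it was that of 3 of 5 conventional dendritic cell and 2 of 6 NK cell markers. The order P1 3, P1 5, P1 4 held 5, 4, 2, 2 and 4 markers of these lists in turn. The part of red cell precursors, or of any other cell type, in the levels of these members was not tested.

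**Figure D5:**
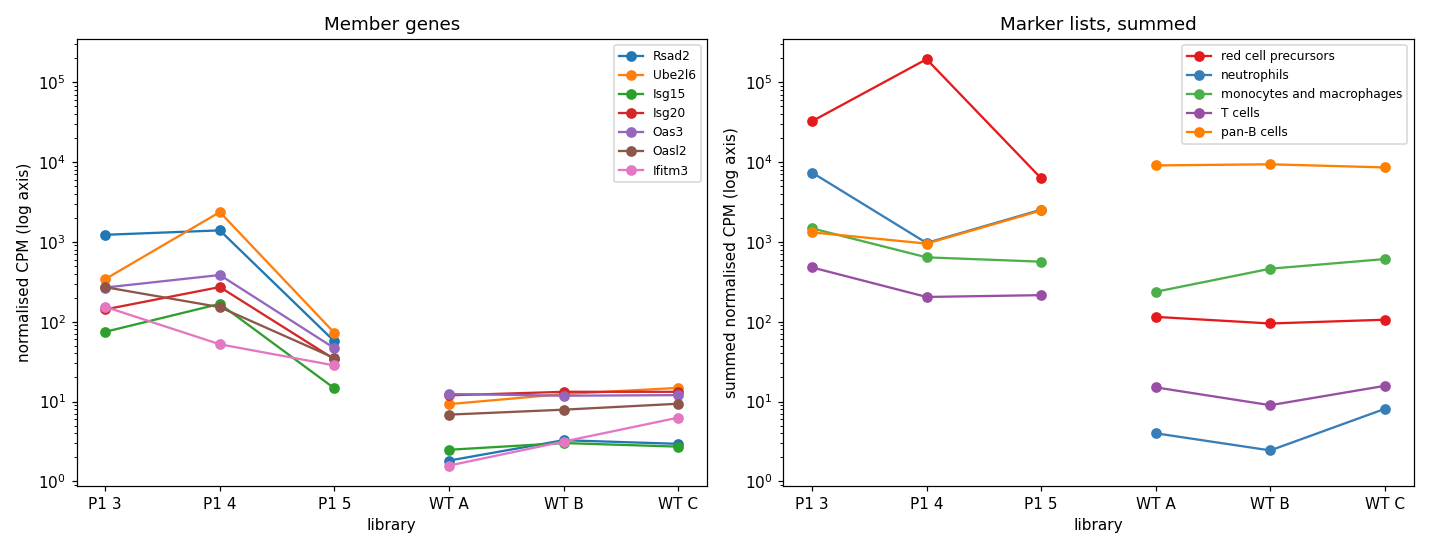
Normalised CPM of 7 called members (left) and summed normalised CPM of 5 marker lists (right) in each library, on log axes. Rsad2, Ube2l6, Isg15, Isg20, Oas3 and the red cell precursor markers peak in P1 4 with the TMM scaling plotted, although by library totals Rsad2, Isg20 and Oas3 peak in P1 3. Oasl2, Ifitm3 and the neutrophil, monocyte and T cell markers peak in P1 3. Lines join libraries of a group and mark no order.

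Few genes of the rest of the interferon pathway were called. Of 48 listed genes 37 were tested, and 5 were higher and 5 lower in P1 spleen (13.5% each way), near the 16.9% and 11% of all tested genes. The receptor chains Ifnar1 and Ifnar2 were at -0.11 and 0.67 (edgeR adjusted p = 0.8 and 0.0735). Jak1, which serves many cytokine receptors, had 353, 264 and 201 CPM in P1 3, P1 4 and P1 5, against 641, 695 and 657 CPM in WT A, B and C, and fell by 1.28 on the log2 scale (standard error 0.32, edgeR adjusted p = 0.0176). Irf2, a repressor of interferon-response elements, Ifngr2, a chain of the interferon gamma receptor, the DNA sensor Tlr9 and the SUMO ligase Pias1 fell too (-1.26, -1.03, -1.36 and -1.04, edgeR adjusted p = 0.0140, 0.0401, 0.0494 and 0.0491). When libraries were scaled to pan-B cell genes these 5 genes were instead called higher (1.37 to 1.94, edgeR adjusted p = 0.00163 to 0.0124), as were 90.9% of all genes. They remained 1.03 to 1.60 below the median of all genes on the log2 scale. With TMM, leaving out WT A, WT B or WT C ended all or all but 1 of the 5 lower calls (0, 0 and 1 lower). Over all genes those fits called 827, 815 and 979 lower, against 1702 with all libraries.

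Ikbke, a kinase that activates Irf3 and Irf7, rose by 1.66 ± 0.34, Cgas, the sensor of cytosolic DNA, by 1.68 ± 0.50, and Rnaseh2b, a subunit of the nuclease that removes ribonucleotides from DNA, by 1.21 ± 0.36 (edgeR adjusted p = 0.00818, 0.0373 and 0.0371). Socs1, a feedback inhibitor of Jak kinases, rose by 1.36 ± 0.43 (edgeR adjusted p = 0.0473). Irf1, Irf3 and Irf8 were at 0.51, -0.45 and -1.07 and did not pass (edgeR adjusted p = 0.254, 0.294 and 0.0564). Of the pathway genes 2 were called higher without WT A, 1 without WT B, 2 without WT C, 2 without P1 3, 3 without P1 4 and 6 without P1 5, against 5 with all libraries. Over all genes those fits, in this order, called 1715, 1644, 1991, 2908, 2818 and 3206 higher, against 2618 with all libraries. Trex1 had 0 counts in every library, and all 1147 of its exon bases are shared with Atrip on the same strand.

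Interferon transcripts themselves were scarce. Ifng, the type II interferon made by T and NK cells, rose by 4.02 ± 0.85 (edgeR adjusted p = 0.00939), with 13.8, 3.70 and 6.15 CPM in P1 3, P1 4 and P1 5 and 0.0606, 0.514 and 0.907 CPM in WT A, B and C. Ifng can also induce part of the set. T cell markers were higher in P1 spleen too, with the order P1 3, P1 5, P1 4 of Ifng in 4 of 8, and their part in its change was not tested. Ifnb1 had 0 counts in all 6 libraries, which allows up to 0.258, 0.694 and 0.348 CPM in P1 3, P1 4 and P1 5 and up to 0.182 to 0.227 CPM in WT libraries. Of the 14 Ifna genes in the table, 6 had counts in P1 spleen and 0 in WT B cells, and together they held 19, 14 and 49 raw counts in P1 3, P1 4 and P1 5. These counts are not scaled. P1 4 had the smallest library total, 7510327, and a TMM factor of 0.578 against 1.13 in P1 3, so they do not rank P1 3 and P1 4. The recipient with the most Ifna counts, P1 5, was the one with the lowest level in most members. These 6 lie on chromosome 4 between 88734465 and 88768893 and belong to a family of closely alike copies, so reads can be assigned to the wrong one.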

How the data were processed

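RNA of 6 mouse samples was sequenced by the authors from 50 ng of total RNA with a directional kit, per the labels' protocols. The deposited table holds raw counts per gene. Per the submitters' processing notes, the tools were Trim Galore, HISAT2 and featureCounts and the build GRCm39; versions, options and counting strand are not given in the sources used here. The gene length column is also the authors', per the file headers, and gave levels per kilobase.

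Gene IDs were given symbols from a GENCODE table (51948 of 56884, 91.3%). The WT column names do not say which labelled mouse each is, and these libraries are WT A to C, in no order. No 2 libraries repeated the same counts (chi-square per degree of freedom 123.7 to 280.2 for pairs of P1 libraries, 19.5 to 20.9 for pairs of WT libraries). Genes passing filterByExpr were scaled with TMM and tested with edgeR 4.0.16 in R 4.3.3 (quasi-likelihood F-test, robust, no covariates), adjusted by Benjamini-Hochberg over all tested genes at 0.05. The procedure was tested on simulated data. Standard errors are the log2 fold change over the square root of F. Alternatives were RLE factors, library totals, pan-B-centred scaling, no filter, DESeq2 1.42.0 and leaving out each library. Upper limits for counts of 0 cover counting error alone, whereas the standard errors also include variation between libraries.

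Within each role, called members without overlap between groups, up to 4 by adjusted p, and the member of highest mean CPM were given per library; Irf7, Trim25, Ifi44 and the pairs of nearby members were added after their values were seen. Members and lists were chosen with earlier results of these data known. All 48 pathway and 72 marker entries matched, with Sting1 and Rigi found through synonyms; the values of 1 pathway gene are not reported here.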

Additional observations from a re-analysis of the deposited data

How the results depend on the processing

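No paired analysis was possible because the labels give the 2 groups only 1 replicate number in common and no pairing. RLE factors changed no call among members. Pan-B-centred scaling called 40 members higher, 36 pathway genes higher and 0 lower, and 14054 of all genes higher and 102 lower. It moved the members' median log2 fold change to 3.84 and that of all genes to 2.98. Members highest in P1 3, P1 4 and P1 5 numbered 28, 10 and 3 with TMM, 13, 28 and 0 with that scaling, and 36, 2 and 3 with library totals. Under pan-B-centred scaling, 10 members with negative fold changes turned positive: 2.99 for Stat2, 2.96 for Irf9, 2.71 for Adar, 2.19 for Mx2, 2.54 for Samhd1, 2.81 for Ifi35, 1.66 for Ifi27l2a, 2.18 for Epsti1, 2.63 for Trim30a, 2.13 for Sp100. With library totals Dhx58 was at -0.067, Ifit3 at -0.09, Oasl1 at -0.35 and Parp14 at -0.065, and without a filter Oasl1 was at -0.051. With library totals 11 members were higher, and pathway genes numbered 1 higher and 2 lower, beside 1928 higher and 1459 lower of all 15462 genes. DESeq2 gave 9 lower pathway genes, beside 2207 of all genes. Without a filter 14 members were higher and 1 (Sp100) lower, beside 3234 higher and 1912 lower of all 31473 genes. Leaving out 1 library gave 10 to 20 members higher and 0 to 5 lower, 1 to 6 pathway genes higher and 0 to 8 lower, and 1644 to 3206 of all genes higher and 815 to 2313 lower. Members whose sign changed ranged, over those fits, from -0.22 to 0.38 (Dhx58), -0.72 to 0.10 (Stat2), -0.33 to 0.11 (Irf9), -0.14 to 0.60 (Trim25), -0.005 to 0.92 (Ifit2), -0.31 to 0.68 (Ifit3), -0.29 to 1.32 (Oas1a), -0.48 to 0.56 (Oasl1) and -0.27 to 0.45 (Parp14). None of the 9 was called with all libraries. The cause of these changes was not tested.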
